A study of Mus musculus with 16 samples.

Results

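Oxidative phosphorylation genes were compared between cultured mouse epicardial explants with and without blebbistatin, an inhibitor of myosin II, with the genes of mitochondrial DNA set against those of the nucleus. The members were all genes of the count table whose symbol starts with mt-, Nduf, Sdh, Uqcr, Atp5 or Cox4 to Cox8. They numbered 112 of 15805 genes, 21 encoded by mitochondrial DNA and 91 by the nucleus, and all 112 passed the filter on low counts. The mitochondrial members were 13 mRNAs, 2 ribosomal RNAs and 6 transfer RNAs. The nuclear ones were 76 subunits, 12 assembly factors, the supercomplex factor Cox7a2l, the ATP synthase-related Atp5s and the pseudogene Atp5l2-ps.

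The blebbistatin group held 8 primary explants treated with the drug and the control group 8 primary explants without it. All 16 came from C57BL6 mice and were grown on collagen gel. No genotype, age or transgene is given in the labels, and nothing in them says whether the explants of a group came from separate animals or whether controls received the drug's solvent, so p-values measure the spread between these explants. The drug's dose reads 20, with the unit written in conflicting ways. Library totals were 20176386 to 89620195 counts with blebbistatin and 27065611 to 60321622 in controls. All 12 listed epicardial marker genes were in the table, with a summed level of 1717 to 4932 CPM with blebbistatin and 2619 to 6278 CPM in controls (CPM is a gene's counts scaled to a common library size). The labels and the table give no batch.

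Oxidative phosphorylation is the final stage of respiration. Complexes I to IV of the inner mitochondrial membrane pass electrons from NADH and succinate to oxygen and, except for complex II, pump protons, and complex V uses the proton gradient to make ATP. Complexes I, III, IV and V are built from subunits of both genomes, while complex II is nuclear in full. Mitochondrial DNA is transcribed from both strands as long RNAs that are cut at the transfer RNAs, so its mRNAs and ribosomal RNAs begin as parts of shared transcripts.

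Some mitochondrial sequences are also present in the nucleus, which bears on how reads were assigned. Of the 13 mitochondrial mRNAs, 9 had at least 1 annotated nuclear copy at 95% identity or more over 100 bases or more, 11 copies in all, of which 7 lay on chromosome 1, 3 on chromosome 2 and 1 on chromosome 13. The stretch below, 80 bases of mt-Co1 (subunit 1 of cytochrome c oxidase) with the aligned bases of its copies Gm29216 and Gm13340, is shown because it sets a copy that reads cannot distinguish beside one that they can. Capitals mark the bases of a copy that differ from mt-Co1: there are 0 in Gm29216 and 4 in Gm13340. The sequences are GENCODE M21 transcripts on build GRCm38, at chrM:6457-6536 (plus strand), chr1:24616042-24616121 (minus strand) and chr2:22588439-22588518 (minus strand).
mt-Co1: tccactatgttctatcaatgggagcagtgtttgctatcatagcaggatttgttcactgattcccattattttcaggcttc
Gm29216: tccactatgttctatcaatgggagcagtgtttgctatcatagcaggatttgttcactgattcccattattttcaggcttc
Gm13340: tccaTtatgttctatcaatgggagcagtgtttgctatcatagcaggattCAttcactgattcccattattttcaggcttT

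In the deposited counts, 5 copies on chromosome 1 that span 99% or more of a mitochondrial gene, at 99.7% to 100% identity, had counts close to or above those of that gene. Gm28437 (chromosome 1, 24613189 to 24613971), identical to mt-Co3 over 783 bases, had 0.99 to 1.02 times the counts of mt-Co3 over the 16 libraries. Gm28661, identical to mt-Co2 over 681 bases, had 1.01 to 1.07 times the counts of mt-Co2, and Gm10925, identical to mt-Atp6 over 678 bases, 1.09 to 1.33 times the counts of mt-Atp6. Copies of part of a gene held fewer, with 0.328 to 0.446 times the counts of mt-Nd4 in Gm28439, identical to it over 876 bases. The copies with several differences also held fewer: Gm13340, with 37 differences from mt-Co1 over 1545 bases, had 0.0439 to 0.0708 times its counts. Levels of mt-Co2, mt-Co3, mt-Atp6, mt-Nd3 and mt-Nd4l as counted are therefore uncertain, and those of mt-Nd4 and mt-Co1 in part. Fold changes were given for each gene as counted and again with the copies' counts added, an alternative chosen after seeing the data. The estimates of the 15 mitochondrial mRNAs and ribosomal RNAs then moved by at most 0.03 on the log2 scale. Only 9 of these genes had a copy, and the rest had nothing added. Copies with counts close to those of their gene had nearly its fold change (0.08 for Gm28437, 0.09 for mt-Co3). Their sum could hardly move, so it cannot tell where the reads came from.

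The mRNAs of mitochondrial DNA had higher mean levels with blebbistatin, and mt-Cytb, the one of smallest p, was called. Nuclear-encoded subunits of the same complexes had smaller median differences. All 13 mitochondrial mRNAs had a positive log2 fold change (blebbistatin minus control, edgeR), with a median of 0.57, a lowest value of 0.09 for mt-Co3 and a highest of 0.87 for mt-Nd6. Over all 15675 tested genes the median was 0.04 and 54.1% were positive. By edgeR's quasi-likelihood test with adjustment over all tested genes 1 of the 13 rose, 0 fell and 12 did not pass, against 0.255% of all genes called higher and 0.351% called lower. At an unadjusted p under 0.05 there were 9 higher and 0 lower, against 6.21% of all genes higher and 5.98% lower. DESeq2 called 7 of the 13 higher and 0 lower, against 1.22% of all genes higher and 1.48% lower. limma voom called 1 higher and 0 lower, against 0.236% higher and 0.549% lower. The 13 mRNAs begin as parts of shared transcripts, and the same blebbistatin libraries tended to be high for most of them. Counts over these mRNAs, here and by complex below, are therefore not counts of independent genes. For 0 of the 112 members did the groups lie wholly apart, against 0.0829% of all genes apart and higher and 0.159% apart and lower.

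mt-Cytb encodes cytochrome b, the subunit of complex III that mitochondrial DNA supplies (chromosome M, 14145 to 15288). Its level was 2018, 2728 and 4346 CPM (lowest, median and highest, scaled by TMM) with blebbistatin and 1423, 1677 and 2403 CPM in controls. All 8 blebbistatin libraries lay above the control median and 5 above the highest control, and the groups overlapped. The mean of mt-Cytb was 2971 ± 925 CPM over the 8 blebbistatin libraries and 1736 ± 288 CPM over the 8 controls (SD), and it rose (log2 fold change 0.77, SE 0.17, adjusted p = 0.041). Its call was lost without blebbistatin 1, 2, 6 or 8 or control 1, 2, 3, 5, 7 or 8 (adjusted p = 0.0545 to 0.0896 in edgeR) and in the fit with Y-linked expression as a covariate (0.174) and without blebbistatin 1 and 8 together (0.0695), and with DESeq2 its adjusted p was 0.00127. The log2 fold change stayed between 0.67 and 0.85 over these and the other alternatives.

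Complex I takes 7 subunits from mitochondrial DNA, all parts of its proton-pumping membrane arm, and their median log2 fold change was 0.71. None passed edgeR, while 5 had an unadjusted p under 0.05 and the same 5 passed DESeq2, against 6.21% of all genes higher by the first rule and 1.22% by the second. mt-Nd5, encoding a subunit related to antiporters (chromosome M, 11742 to 13565), stood at 1652, 2541 and 4208 CPM with blebbistatin and at 1074, 1504 and 2044 CPM in controls. Every blebbistatin library lay above the control median and 5 above the highest control. The log2 fold change of mt-Nd5 was 0.80 (SE 0.20, adjusted p = 0.0616), and it passed edgeR without blebbistatin 4 (0.0475) or blebbistatin 7 (0.0494) and passed DESeq2 (0.00542).

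mt-Nd1, whose subunit lies where ubiquinone enters the complex, stood at 1267, 2187 and 2810 CPM with blebbistatin and 872, 1270 and 1709 CPM in controls (log2 fold change 0.71, SE 0.19, adjusted p = 0.0792). mt-Nd4 stood at 1482, 2601 and 3333 CPM with blebbistatin and 975, 1564 and 1894 CPM in controls (0.67, SE 0.19, adjusted p = 0.117). In both genes 5 blebbistatin libraries exceeded every control. mt-Nd4l, which overlaps the start of mt-Nd4, had an estimate of 0.79 (SE 0.23, adjusted p = 0.128). mt-Nd2 and mt-Nd3 had smaller estimates, of 0.38 (SE 0.26, adjusted p = 0.606) and 0.29 (SE 0.20, adjusted p = 0.606).

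mt-Nd6 is encoded on the other strand from the remaining 12 mRNAs (chromosome M, 13552 to 14070, minus strand). It stood at 155, 334 and 626 CPM with blebbistatin and 130, 189 and 324 CPM in controls (estimate 0.87, SE 0.27, adjusted p = 0.15). Per library, the log2 ratio of mt-Cytb to mt-Nd6 counts averaged 3.19 ± 0.469 with blebbistatin and 3.22 ± 0.426 in controls, a difference smaller than either spread. RNA of the mt-Nd6 strand and RNA of its complement cannot be told apart in these counts, and strand use in the counting is not stated.

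The core subunits of complex IV, mt-Co1, mt-Co2 and mt-Co3, had estimates of unlike size, with no test of the difference between them. mt-Co1 held the most reads of any mitochondrial mRNA and carries the site where oxygen is reduced. Its level was 6674, 9673 and 13250 CPM with blebbistatin and 3989, 6764 and 8273 CPM in controls (log2 fold change 0.57, SE 0.17, adjusted p = 0.139), with 5 blebbistatin libraries above every control. mt-Co2 had an estimate of 0.45 (SE 0.20, adjusted p = 0.358). mt-Co3 (chromosome M, 8607 to 9390) stood at 582, 921 and 1468 CPM with blebbistatin and 542, 1006 and 1361 CPM in controls, the control median being the higher of these (0.09, SE 0.22, adjusted p = 0.906). Its estimate ran from −0.16 to 0.18 over the alternatives and was the single one among the 13 mRNAs to change sign. The log2 ratio of mt-Cytb to mt-Co3 counts was 0.904, 1.68 and 2.25 with blebbistatin and 0.242, 0.979 and 1.63 in controls. This ratio was described after the values had been seen and was not tested.

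For complex V, mt-Atp6 and mt-Atp8 encode membrane subunits of ATP synthase from overlapping reading frames. mt-Atp6 stood at 519, 894 and 1136 CPM with blebbistatin and 498, 594 and 923 CPM in controls (log2 fold change 0.39, SE 0.18, adjusted p = 0.402). mt-Atp8 had an estimate of 0.43 (SE 0.25, adjusted p = 0.518).

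**Figure D1:**
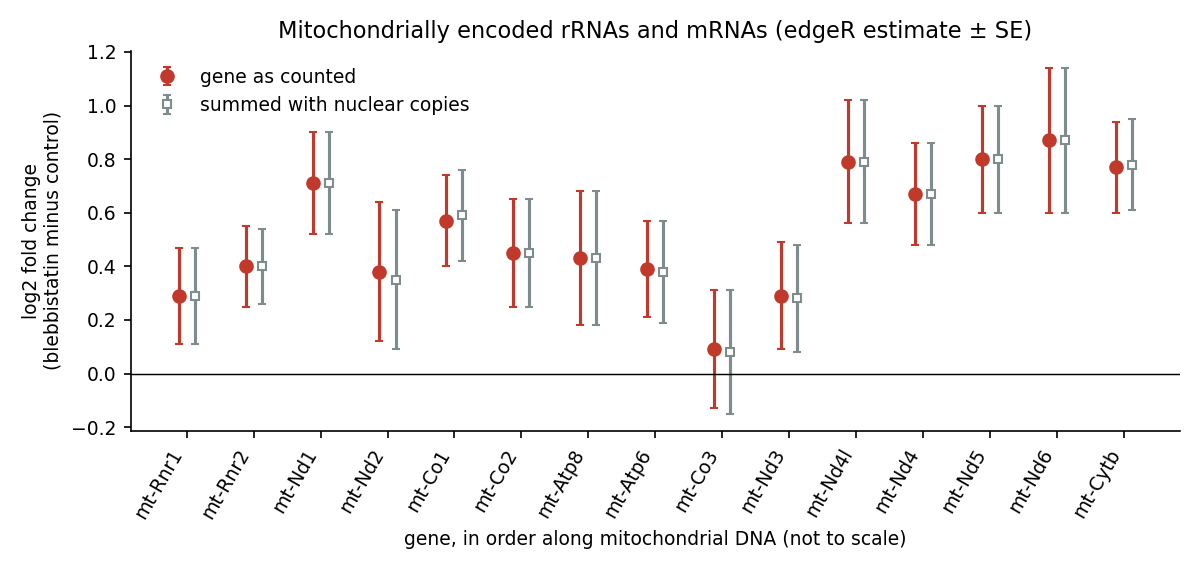
Log2 fold change (blebbistatin minus control, edgeR, vertical axis) of the mitochondrial ribosomal RNAs and mRNAs in their order along mitochondrial DNA (horizontal axis, not to scale), with bars of 1 SE and n = 8 libraries per group; open squares give the estimate after adding the counts of nuclear copies. Values run from 0.09 for mt-Co3 to 0.87 for mt-Nd6, and mt-Nd4l to mt-Cytb lie at 0.67 to 0.87.

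The blebbistatin libraries were not uniform in their mitochondrial mRNAs. In blebbistatin 1, 2, 5 and 8, 10 to 12 of the 13 mRNAs lay above every control, and in blebbistatin 6 there were 7. In blebbistatin 3, 4 and 7 there were 0 of 13. The mRNAs as a whole took 1.76%, 2.45% and 3.29% of a library's counts with blebbistatin and 1.16%, 1.63% and 2.14% in controls. All 8 blebbistatin shares exceeded the control median, and 5 exceeded every control.

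The sexes of the explants were uneven between the groups, with the Y-linked gene Ddx3y over 10 CPM in 5 blebbistatin and 2 control libraries. Among those libraries the mRNA share was 1.76% to 3.29% with blebbistatin and 1.68% to 2.14% in controls. Among the others, 3 with blebbistatin and 6 controls, it was 1.86% to 3.20% with blebbistatin and 1.16% to 1.88% in controls. In a fit that took Y-linked expression into account the median log2 fold change of the 13 mRNAs was 0.43.

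The ribosomal RNAs of mitochondria made up most of the mitochondrial counts. mt-Rnr2, the large ribosomal RNA, stood at 91271, 120563 and 176407 CPM with blebbistatin and 76257, 88522 and 108080 CPM in controls, and 6 blebbistatin libraries lay above every control. Its log2 fold change was 0.40 (SE 0.15, adjusted p = 0.238). mt-Rnr1, the small ribosomal RNA, had one of 0.29 (SE 0.18, adjusted p = 0.543). Neither passed edgeR, DESeq2 or limma voom, and mt-Rnr2 alone had an unadjusted p under 0.05 in edgeR. Counts of ribosomal RNA were 5.99, 8.20 and 9.0 times those of mitochondrial mRNA with blebbistatin and 7.55, 8.50 and 11 times in controls, so the mean ratio was lower with blebbistatin (7.81 ± 1.09) than in controls (9.08 ± 1.3), with overlapping groups.

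**Figure D2:**
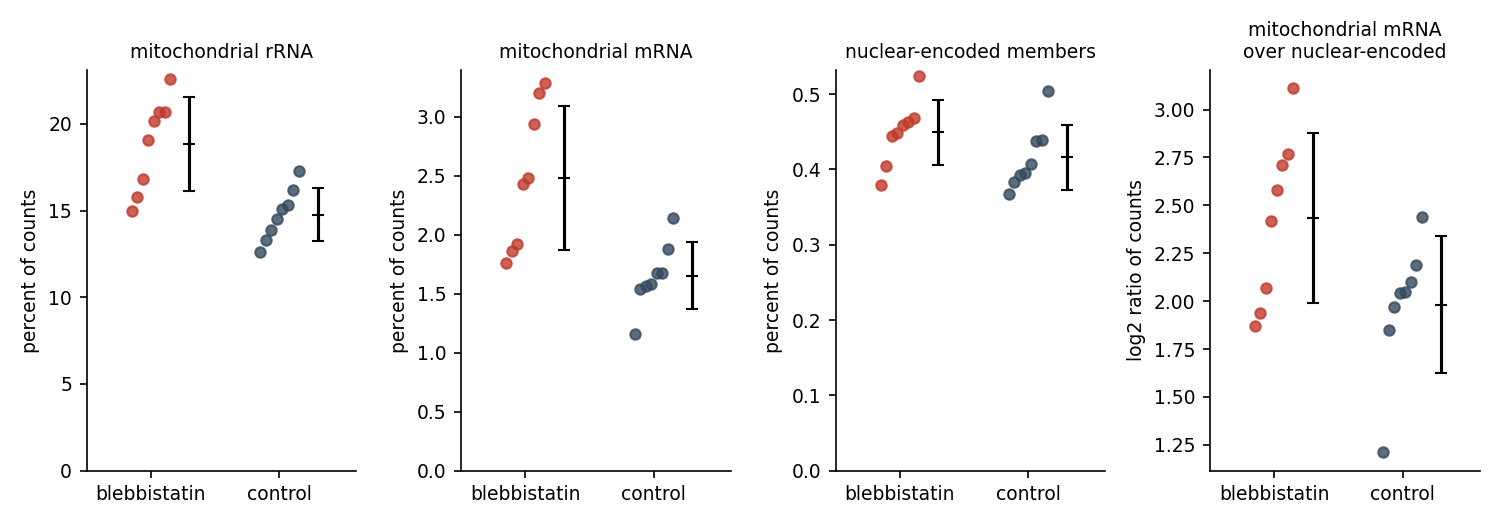
Share of a library's counts (percent, vertical axes) held by mitochondrial ribosomal RNA, mitochondrial mRNA and the 91 nuclear-encoded members, and the log2 ratio of mitochondrial mRNA to nuclear-encoded counts, in blebbistatin (left) and control (right) libraries. Points are libraries, sorted within a group, and bars are the mean ± SD (n = 8 each); mitochondrial mRNA averaged 2.48% with blebbistatin and 1.66% in controls, nuclear-encoded members 0.449% with blebbistatin and 0.416% in controls.

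Among the 91 nuclear-encoded members 0 passed edgeR, DESeq2 or limma voom, against 0.606%, 2.70% and 0.785% of all genes called in either direction. DESeq2 gave no adjusted p for Cox6a2 (log2 fold change −1.47) or Sdhaf1, so these could not pass it. All DESeq2 shares in the text were taken over the 15675 tested genes, including those without an adjusted p. By edgeR 3 had an unadjusted p under 0.05 and a higher level, namely Ndufs1, Uqcr10 and Cox7a2, and 1 a lower level, Cox6a2, against 12.2% of all genes. The 91 nuclear-encoded members had a median log2 fold change of 0.11, against 0.04 over all tested genes. Of them 74.7% were positive (68, with 23 negative), against 54.1% of all tested genes. Beside Cox6a2 at −1.46 all members lay between −0.40 and 0.55. Standard errors ran from 0.09 to 0.62 with a median of 0.19. These are whole-explant libraries, in which fewer cells of a type and less RNA per cell cannot be told apart.

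In complex I the 36 tested nuclear subunits had a median log2 fold change of 0.09, 24 positive and 12 negative. Ndufs1, the largest subunit and a carrier of iron-sulfur clusters (chromosome 1, 63143596 to 63176833), stood at 36.7, 46.8 and 52.4 CPM with blebbistatin and 27.2, 37.3 and 53.1 CPM in controls (log2 fold change 0.31, SE 0.14, adjusted p = 0.36). It lay above the control median in 7 of 8 blebbistatin libraries and above the highest control in 0. Ndufb8, an accessory subunit, had an estimate of 0.41 (SE 0.23, adjusted p = 0.50) and Ndufs3, a core subunit near the quinone site, one of −0.25 (SE 0.16, adjusted p = 0.566). Ndufv1, which binds NADH, had one of 0.29 (SE 0.21, adjusted p = 0.632). Per exon length the most abundant nuclear subunit was Ndufa1, at 87.6 CPM per kb with blebbistatin and 82.5 CPM per kb in controls. The 8 assembly factors of complex I in the table, Ndufaf1 to Ndufaf7 and Atp5sl, had 0 calls as well.

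Complex II, succinate dehydrogenase, has no mitochondrially encoded subunit. Sdha, its catalytic flavoprotein, stood at 125, 195 and 219 CPM with blebbistatin and 107, 158 and 214 CPM in controls (log2 fold change 0.19, SE 0.14, adjusted p = 0.652). Sdhc, a membrane anchor and the most abundant of the 4 subunits per exon length, stood at 110, 154 and 410 CPM with blebbistatin and 110, 141 and 199 CPM in controls (0.33, SE 0.22, adjusted p = 0.596). Blebbistatin 1 was the highest, and without it the estimate of Sdhc was 0.05 (adjusted p = 0.916). The iron-sulfur subunit Sdhb, at −0.13 (SE 0.24, adjusted p = 0.868), and the anchor Sdhd, at 0.14 (SE 0.18, adjusted p = 0.806), had smaller estimates. The assembly factor Sdhaf1 was low, at 0.428 to 2.42 CPM with blebbistatin and 0.400 to 1.86 CPM in controls (0.54, adjusted p = 0.672).

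In complex III the 8 nuclear subunits matched by the searched prefixes had a median of 0.09, beside 0.77 for mt-Cytb. The prefixes left out Cyc1, for cytochrome c1 of this complex (−0.09, SE 0.16, adjusted p = 0.872). Cyc1 was listed with the electron carriers instead and is in none of the complex III sums. Uqcr10, a small subunit (chromosome 11, 4701973 to 4704342), stood at 14.6, 24.6 and 46.1 CPM with blebbistatin and 14.8, 16.6 and 25.4 CPM in controls (log2 fold change 0.49, SE 0.22, adjusted p = 0.371), and 4 blebbistatin libraries exceeded every control. The core proteins Uqcrc1 and Uqcrc2 had estimates of 0.24 (SE 0.16, adjusted p = 0.59) and −0.11 (SE 0.14, adjusted p = 0.802). The Rieske iron-sulfur protein Uqcrfs1 had one of 0.11 (SE 0.22, adjusted p = 0.872) and Uqcrh one of 0.06 (SE 0.22, adjusted p = 0.935). Over all libraries Uqcrh was the most abundant per exon length, at 38.7 CPM per kb against 38.1 CPM per kb for Uqcr10, which was the higher of the pair with blebbistatin (44.5 CPM per kb against 39.5 CPM per kb for Uqcrh).

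In complex IV the 13 nuclear subunits, among them Ndufa4, which was once assigned to complex I, had a median of 0.16. Several come in tissue-specific isoforms, of which Cox6a2 is the form of heart and skeletal muscle and Cox6a1 the form of other tissues. Cox7a2 (chromosome 9, 79755361 to 79759878) stood at 22.7, 24.2 and 38.5 CPM with blebbistatin and 12.8, 21.2 and 27.3 CPM in controls, above the control median in 8 of 8 blebbistatin libraries (log2 fold change 0.41, SE 0.17, adjusted p = 0.31). Cox6a2 (chromosome 7, 128205435 to 128206387) was near the detection limit, at 0.0855, 0.721 and 2.08 CPM with blebbistatin and 0.645, 2.48 and 6.66 CPM in controls (−1.46, SE 0.62, adjusted p = 0.327). All 8 blebbistatin libraries lay below the control median of Cox6a2, and the groups overlapped.

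Its counterpart Cox6a1 stood far above it, at 193 CPM per kb with blebbistatin and 178 CPM per kb in controls, against 1.40 CPM per kb with blebbistatin and 3.85 CPM per kb in controls for Cox6a2. The log2 fold change of Cox6a1 was 0.12 (SE 0.11, adjusted p = 0.713). Cox6b1, the common form of another subunit, had one of 0.07 (SE 0.15, adjusted p = 0.881) and its testis form Cox6b2, at 3.27 CPM per kb with blebbistatin and 2.52 CPM per kb in controls, one of 0.37 (SE 0.43, adjusted p = 0.781). Ndufa4 had an estimate of 0.34 (SE 0.16, adjusted p = 0.413), Cox4i1 of 0.11 (adjusted p = 0.841), Cox7b of 0.16 (adjusted p = 0.764) and Cox8a, the most abundant nuclear subunit of the complex per exon length, of 0.13 (SE 0.12, adjusted p = 0.692). Cox7a2l, which helps join complexes III and IV into supercomplexes, had one of −0.02 (SE 0.13, adjusted p = 0.97).

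Cardiomyocyte genes were listed because Cox6a2 belongs to that cell type. Of 14 listed markers 8 were in the table (Myh6, Tnnt2, Tnni1, Actc1, Ttn, Myl4, Myl7 and Ryr2), and their summed level was 703 to 1282 CPM with blebbistatin and 460 to 1061 CPM in controls. Most of this was Tnnt2, at 572 to 1035 CPM with blebbistatin and 334 to 851 CPM in controls (log2 fold change 0.66, adjusted p = 0.124). Ttn, for the giant sarcomere protein titin, stood at 27.4, 43.5 and 97.0 CPM with blebbistatin and 6.04, 11 and 42.3 CPM in controls and rose (1.64, adjusted p = 0.0464). Ryr2, the calcium release channel of heart muscle, had an estimate of 2.12 (adjusted p = 0.124), and Myl4, Tnni1 and Myl7 had estimates of 0.41, 0.08 and −0.26 (adjusted p = 0.885, 0.917 and 0.748). Myh6 and Actc1 did not pass the filter on low counts. Myh7, Tnni3, Nppa, Myl2, Myl3 and Pln were not analysed here. All 10 macrophage markers were in the table, with a summed level of 229 to 3237 CPM with blebbistatin and 292 to 4277 CPM in controls. The part of these cells in the mitochondrial values was not tested.

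Complex V had 15 nuclear subunits with a median of 0.11. Atp5b, the catalytic beta subunit and the most abundant of them per exon length (chromosome 10, 128083273 to 128090391), stood at 480, 823 and 1177 CPM with blebbistatin and 593, 675 and 1025 CPM in controls (log2 fold change 0.16, SE 0.18, adjusted p = 0.764). Atp5a1, the alpha subunit, varied little, at 267, 318 and 331 CPM with blebbistatin and 225, 296 and 342 CPM in controls (0.08, SE 0.09, adjusted p = 0.765). The genes Atp5g1, Atp5g2 and Atp5g3 all encode the c subunit of the rotor and had estimates of 0.07, 0.25 and 0.04 (adjusted p = 0.896, 0.669 and 0.949). Those of smallest p in this complex were Atp5d (0.24, adjusted p = 0.60), Atp5k (0.38, adjusted p = 0.642) and Atp5s (0.43, adjusted p = 0.643).

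**Figure D3:**
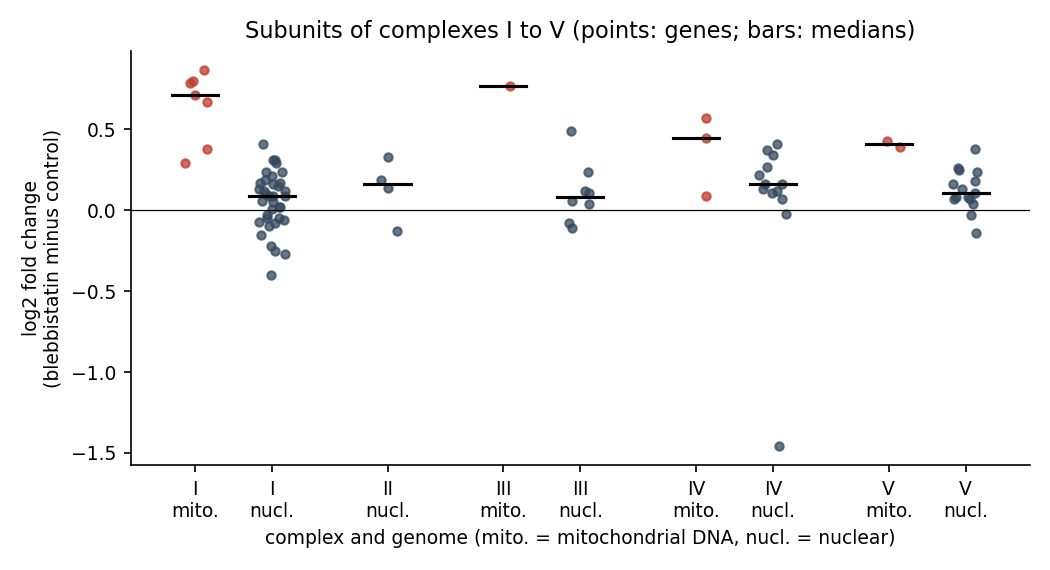
Log2 fold change (blebbistatin minus control, edgeR, vertical axis) of each subunit, by complex and by encoding genome (horizontal axis); points are genes and bars are medians. The mitochondrial medians were 0.71, 0.77, 0.45 and 0.41 for complexes I, III, IV and V, the nuclear medians 0.09 to 0.16 for complexes I to V, and the lowest point is Cox6a2 at −1.46.

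Within a library, the mean ratio of mitochondrial to nuclear subunit counts was higher with blebbistatin in complexes I, III, IV and V. Mitochondrial mRNA counts over the counts of all 91 nuclear members gave a log2 ratio of 1.87, 2.50 and 3.11 with blebbistatin and 1.21, 2.04 and 2.44 in controls, means that differed by 0.455 with SDs of 0.442 and 0.356. The groups overlapped, with 4 blebbistatin libraries above every control. Among libraries with Ddx3y over 10 CPM the median ratio was 2.58 in 5 blebbistatin (1.94 to 3.11) and 2.24 in 2 control libraries (2.05 to 2.44). Among the others it was 2.07 in 3 blebbistatin libraries (1.87 to 2.77) and 2.0 in 6 controls (1.21 to 2.19). By complex, the mean difference in this log2 ratio was 0.587 in complex I, 0.669 in complex III, 0.364 in complex IV and 0.261 in complex V. In complex III all 8 blebbistatin libraries exceeded the control median, in complex I 7 and in complexes IV and V 5 each. These ratios are sums over members and were given without a test.

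**Figure D4:**
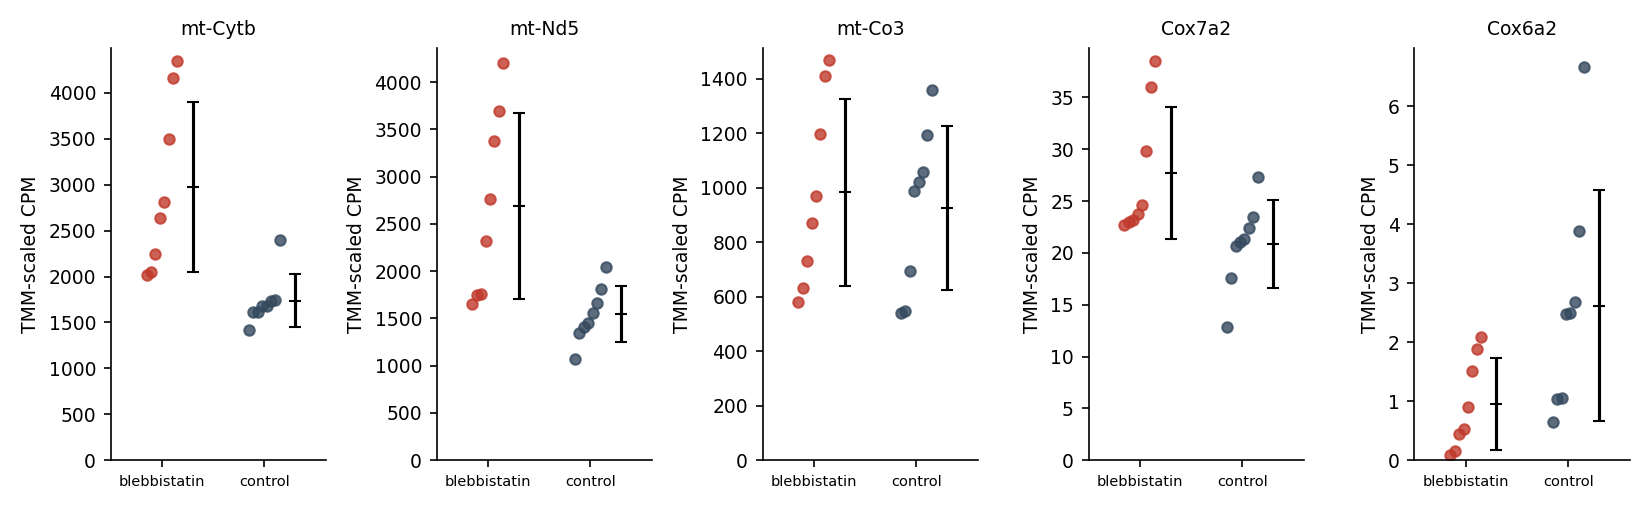
Level (TMM-scaled CPM, vertical axes) of mt-Cytb, mt-Nd5, mt-Co3, Cox7a2 and Cox6a2 in blebbistatin (left) and control (right) libraries. Points are libraries, sorted within a group, and bars are the mean ± SD (n = 8 each); 5 blebbistatin libraries exceed every control for mt-Cytb and mt-Nd5, and 2 do so for mt-Co3.

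Levels per exon length did not overlap between the genomes, but the lowest mitochondrial mRNA and the highest nuclear subunit lay close together. The length is that of a gene's annotated exons (5628 bases for Ndufb2, 4237 for Atp5b), not of the transcript present. Levels per kb, and the rankings per exon length given above, therefore depend on the annotation. Averaged over the groups, the mitochondrial mRNAs ranged from 222 to 5251 CPM per kb with a median of 1161, and the nuclear subunits from 0.702 to 206 CPM per kb with a median of 19.6. mt-Co1 was the highest mitochondrial mRNA, at 6273 CPM per kb with blebbistatin and 4229 CPM per kb in controls, and mt-Nd3 the lowest, at 243 CPM per kb with blebbistatin and 200 CPM per kb in controls. Reads shared with nuclear copies make the order among mt-Co2, mt-Co3, mt-Atp6, mt-Nd3 and mt-Nd4l uncertain.

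Promoters of the nuclear members were searched for motifs of factors known to regulate respiratory genes, NRF1, GABP and YY1. RefSeq promoters on build GRCm38.p6, from 250 bases before to 50 after the start, were found for 74 of the 91 nuclear members, 79 promoters in all. The NRF1 motif, searched as GCGCANGCG on both strands like the others, was in 31.6% of these promoters and in 6.25% of all 32851. The GABP motif CCGGAAGT was in 6.33% of member promoters and 3.89% of all, and the YY1 motif AAGATGGCG in 8.86% of member promoters and 1.40% of all. No match of one motif overlapped a match of another in the member promoters. By complex the NRF1 letters were in 10 of 38 genes for complex I, 4 of 7 for complex II, 2 of 5 for complex III, 1 of 11 for complex IV and 7 of 13 for complex V.

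Several member promoters held NRF1 letters at more than 1 place, those of Ndufb4, Ndufa8 and Atp5k among them. Below, such letters are in capitals, which run together where matches on both strands overlap. The promoters of Sdha, Uqcrc1 and Cox6a1 are shown as examples. They belong to complexes II, III and IV. Their positions are chr13:74350191-74350490 (minus strand), chr9:108936398-108936697 (plus strand) and chr5:115348909-115349208 (minus strand). The log2 fold changes of these genes were 0.19, 0.24 and 0.12, and none passed edgeR.
Sdha: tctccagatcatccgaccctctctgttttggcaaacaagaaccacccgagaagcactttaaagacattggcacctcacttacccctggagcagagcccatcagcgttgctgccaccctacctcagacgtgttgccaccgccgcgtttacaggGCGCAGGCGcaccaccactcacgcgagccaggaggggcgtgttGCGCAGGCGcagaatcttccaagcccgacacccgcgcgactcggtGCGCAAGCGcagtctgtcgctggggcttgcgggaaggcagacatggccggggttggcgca
Uqcrc1: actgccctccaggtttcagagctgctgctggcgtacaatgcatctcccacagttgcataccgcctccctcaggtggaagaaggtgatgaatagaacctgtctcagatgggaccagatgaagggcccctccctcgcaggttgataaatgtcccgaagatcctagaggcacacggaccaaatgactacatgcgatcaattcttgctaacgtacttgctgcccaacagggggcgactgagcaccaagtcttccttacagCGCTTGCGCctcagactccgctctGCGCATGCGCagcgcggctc
Cox6a1: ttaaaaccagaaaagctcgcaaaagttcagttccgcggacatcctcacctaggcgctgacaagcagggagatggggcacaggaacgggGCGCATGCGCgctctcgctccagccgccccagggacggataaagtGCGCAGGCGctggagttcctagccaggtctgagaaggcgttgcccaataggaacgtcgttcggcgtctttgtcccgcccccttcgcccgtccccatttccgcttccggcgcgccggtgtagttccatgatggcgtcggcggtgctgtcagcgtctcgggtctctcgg

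Among 14 tested regulators of nuclear respiratory genes 0 passed edgeR or limma voom and 3 had an unadjusted p under 0.05, all higher, while DESeq2 called 1 higher. Over all genes 6.21% were higher at that unadjusted p and 1.22% were called higher by DESeq2. That gene was Ppargc1a, which encodes PGC-1 alpha, a coactivator that drives the formation of mitochondria. It stood at 2.91, 9.87 and 54.2 CPM with blebbistatin and 0.501, 2.26 and 13.3 CPM in controls, above the control median in 8 of 8 blebbistatin libraries. The log2 fold change of Ppargc1a was 2.16 (SE 0.64, adjusted p = 0.137 in edgeR and 0.0437 in DESeq2), and without control 6 it was 2.92 (adjusted p = 0.0195 in edgeR). Without blebbistatin 8, the highest library, the estimate of Ppargc1a was 1.48 (adjusted p = 0.292 in edgeR). Esrrg, for a nuclear receptor that works with PGC-1 alpha, had an estimate of 1.33 (SE 0.55, adjusted p = 0.319) and Gabpa, a subunit of GABP, one of 0.29 (SE 0.12, adjusted p = 0.327). The exons of Gabpa and of the member Atp5j overlap on opposite strands.

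Of 36 tested genes for copying and transcribing mitochondrial DNA and processing its RNA 0 passed edgeR, DESeq2 or limma voom, and 1 was higher and 1 lower at an unadjusted p under 0.05 (median log2 fold change −0.01). These were Mterf1b, of the family of mitochondrial transcription terminators (1.90, SE 0.70, adjusted p = 0.25), and Tfb1m, which methylates the small ribosomal RNA (−1.45, SE 0.61, adjusted p = 0.327). Mterf1b was highest in blebbistatin 1 at 20.9 CPM, the next blebbistatin library being at 3.53 CPM, and without blebbistatin 1 its estimate was 0.69 (adjusted p = 0.612). Without control 1, the highest control for Tfb1m, the estimate of Tfb1m was −0.82 (adjusted p = 0.601). Elac2, which cuts transfer RNAs out of the long transcripts, stood at 7.16, 12.7 and 22.2 CPM with blebbistatin and 4.72, 6.99 and 14.3 CPM in controls (0.56, SE 0.29, adjusted p = 0.446).

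Further mitochondrial gene groups also held no called gene, and are set against the 12.2% of all genes with an unadjusted p under 0.05 in edgeR and the 54.1% with a positive estimate. Of 75 tested mitochondrial ribosomal proteins 0 passed any of the 3 tools, 37 were positive and 38 negative and 2 were higher and 1 lower at an unadjusted p under 0.05, led by Mrpl24 (log2 fold change 0.83, adjusted p = 0.256). Of 37 assembly factors outside the searched prefixes 0 passed any of the 3 tools (median 0.09), with 1 lower at an unadjusted p under 0.05, Uqcc3 of complex III (−0.87, SE 0.41, adjusted p = 0.395). Of 18 genes for cytochromes c and c1, coenzyme Q and electron-transfer flavoproteins 0 passed any of the 3 tools (median −0.04), with 1 higher and 1 lower at an unadjusted p under 0.05. In that list Coq10b, a coenzyme Q-binding protein, stood at 7.85, 16.8 and 20.7 CPM with blebbistatin and 14.2, 26.5 and 31.8 CPM in controls (−0.65, SE 0.21, adjusted p = 0.184), below the control median in 8 of 8 blebbistatin libraries. Of 21 genes for abundant mitochondrial proteins 0 passed any of the 3 tools (median −0.04), with 2 lower at an unadjusted p under 0.05, the import receptor Tomm70a (−0.42, SE 0.14, adjusted p = 0.185) and the chaperonin Hspe1 (−0.28, SE 0.13, adjusted p = 0.397).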

How the data were processed

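RNA of 16 explants was sequenced after amplification with an Ovation RNA-Seq kit and library construction with Nextera XT, per the labels' protocols. The authors deposited raw read counts per gene. Build mm10 (GRCm38), HTSeq 0.6.1p1, edgeR, SAMtools 1.3, TopHat2 2.1.0 and Bowtie2 2.2.6.0 are named, per the submitters' processing notes, without their roles. The annotation, strand setting, handling of reads with several positions and filters were not stated there or in the labels. Of 112 members all matched GENCODE M21 (GRCm38), which gave positions and exon lengths, and 31 of the 91 nuclear ones share exon sequence with a gene on the other strand, Ndufs1, Ndufs3, Cox4i1, Cox6a2 and Atp5a1 among them.

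Counts were scaled by TMM and filtered with filterByExpr, leaving 15675 of 15805 genes. Groups were compared in edgeR 4.0.16 (R 4.3.3) by the robust quasi-likelihood method and no other covariate. P-values were adjusted across the 15675 genes (Benjamini-Hochberg, threshold 0.05). The script was tested on simulated data. DESeq2 1.42.0, limma 3.58.1 (voom, robust), other scalings, no filter, covariates and left-out libraries were alternatives. Log2 CPM used a prior count of 2. Nuclear copies were found with BLASTN 2.17.0+ in GENCODE transcripts. The text names all mitochondrial mRNAs and ribosomal RNAs, listed isoforms and catalytic subunits, the 3 nuclear members of smallest p and the most abundant subunit of each complex, and genes of smallest p from each pathway list; cell markers were named as listed. One gene under this rule is not reported here. Members and lists were chosen with earlier results of these data known. Read counts without molecular identifiers are not independent molecules. Same-numbered explants were checked for pairing: 4 of 8 pairs had a correlation of deviations over 0.1. This does not settle whether they were pairs, and the group comparison did not take them as such.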

Additional observations from a re-analysis of the deposited data

Results flagged for a closer look

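A library stood apart from the other 7 of its group in 23 of 176 groups of values examined. The measure was the gap to its nearest neighbour relative to the group's range (Dixon's criterion). The criterion's chance rate, about 1 in 20, holds for normally distributed values. Most flagged values were unlogged CPM and the highest of their group, so an excess over chance cannot be read from these counts. Many of these values share libraries and are not independent. Among mitochondrial genes, control 4 was the highest control for mt-Nd2 (1823.4 CPM, next 857.8) and for mt-Cytb (2403.4 CPM, next 1748.5). Control 1 was the highest control for mt-Nd6 (324.1 CPM, next 210.2) and had the lowest control log2 ratio of mt-Cytb to mt-Nd6 (2.31, next 3.05), and blebbistatin 2 was the highest of its group for mt-Rnr2 (176407.1 CPM, next 131405.3). Control 2 had the lowest control log2 ratio of mitochondrial to nuclear subunits of complex IV (2.62, next 3.4).

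Among nuclear members, blebbistatin 1 was the highest of its group for Sdhc (410.3 CPM, next 202.7), Sdhb (61.2 CPM, next 29.8), Atp5g1 (114.6 CPM, next 76.2) and the summed subunits of complex II (635.1 CPM, next 477.3). Blebbistatin 8 was the highest of its group for Ndufs3 (37.8 CPM, next 28.0) and Ndufa1 (63.4 CPM, next 41.0). Blebbistatin 6 was the lowest of its group for Ndufv1 (11.8 CPM, next 16.6), blebbistatin 5 the lowest for Atp5a1 (266.7 CPM, next 304.0), and control 1 the highest control for Cox6b1 (114.7 CPM, next 77.0).

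Among other mitochondrial genes, Mterf1b was highest in blebbistatin 1 (20.9 CPM, next 3.53) and Tfb1m in control 1 (13 CPM, next 5.19). Ppargc1a was highest in blebbistatin 8 within its group (54.2 CPM, next 22.1) and in control 6 among controls (13.3 CPM, next 3.17). Sco1 was highest in blebbistatin 8 (16.7 CPM, next 9.17) and, among controls, in control 3 (23.9 CPM, next 14.1). Nubpl was highest in control 8 (13.2 CPM, next 6.38) and Adck4 in blebbistatin 7 (5.42 CPM, next 2.46).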

How the results depend on the processing

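The count of all genes called, 95, was 424 with DESeq2, 177 with the replicate block and 21 with the Y-linked covariate, and ran from 44 to 206 as single libraries were left out. It was above 1.5 times 95 without blebbistatin 5 (180) or control 6 (206), and under 95 divided by 1.5 without blebbistatin 6 (49) or 8 (62) or control 1 (60), 2 (58), 4 (52), 7 (44) or 8 (54). The count of mitochondrial members called, 1, was 7 with DESeq2, 0 with the replicate block, 0 with the Y-linked covariate and 0 without blebbistatin 1 and 8 together, and ran from 0 to 2 as single libraries were left out; the cause was not tested. mt-Cytb had an adjusted p of 0.085 with the replicate block and 0.0695 without blebbistatin 1 and 8. Whether same-numbered explants belong together was not settled. Their correlations of deviations ran from 0.00394 to 0.279, and 2 of 8 blebbistatin libraries correlated best with their own number. No nuclear member was called under any alternative run. The median log2 fold change of mitochondrial mRNAs stayed at 0.49 to 0.64, that of nuclear members at 0.07 to 0.14 and the difference in log2 ratio at 0.34 to 0.53 over the left-out libraries. With ribosomal RNAs added to the mRNAs the difference in log2 ratio was 0.26, against 0.45. Adding nuclear copies, an alternative chosen after seeing the data, gave a median of 0.59 for mitochondrial mRNAs. Ppargc1a had an adjusted p of 0.0195 to 0.497 over all alternatives. Few reads stand behind low genes such as Cox6a2, at 0.0855 CPM in blebbistatin 1, and Sdhaf1, at 0.4 CPM in control 4.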

Other observations

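The 6 mitochondrial transfer RNAs in the table, mt-Tc, mt-Te, mt-Tn, mt-Tp, mt-Ts1 and mt-Ty, had low counts and did not share a direction. All 6 are encoded on the minus strand. Their RNA and RNA of the other strand cannot be told apart in these counts, and strand use in the counting is not stated. Of them 3 had a positive and 3 a negative log2 fold change, and 0 passed any of edgeR, DESeq2 and limma voom, with 0 at an edgeR p under 0.05 before adjustment. mt-Tp stood at 1.76, 3.49 and 5.28 CPM with blebbistatin and 1.24, 1.98 and 4.04 CPM in controls (0.62, SE 0.33, adjusted p = 0.476), and mt-Ty at 0.693, 1.04 and 1.34 CPM with blebbistatin and 0.349, 1.34 and 2.08 CPM in controls (−0.30, SE 0.39, adjusted p = 0.801). mt-Ts1, which overlaps the end of mt-Co1 on the other strand, had an estimate of 0.62 (SE 0.39, adjusted p = 0.56).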
